A study of Mus musculus with 32 samples.

Results

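This report concerns chromatin regions at 38 genes of 2 metabolic pathways in HSPCs, the blood-forming stem and progenitor cells of mouse marrow: 22 genes of glycolysis and its regulation, and 16 genes of cholesterol synthesis. A region was assigned to a gene when that gene was its nearest protein-coding gene model within 50 kb on GRCm38, so each assignment is one of distance and not of measured regulation. The assay was ATAC-seq, in which a transposase cuts accessible DNA and a peak marks a stretch that was cut more than its surroundings. Of 31846 merged regions, 99 belonged to the 38 genes, and 79 of the 23554 regions found in at least 3 libraries and tested were members. Glycolysis had 54 of these and cholesterol synthesis 25. Hk3 and Pfkl had no region, and the other 36 genes had at least 1 tested region.

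All mice were lethally irradiated C57BL/6J (CD45.2) recipients of a mixed graft that held 800000 wild-type CD45.1+/2+ marrow cells. AF9-experienced mice also received 200000 CD45.1 cells homozygous for hMLL-AF9, a human leukaemia fusion gene, and for rtTA, the doxycycline-dependent activator. Naive mice received 200000 CD45.1 cells that were homozygous for rtTA and lacked hMLL-AF9. Starting 6 to 8 weeks after transplantation, leukaemia was induced with doxycycline for 5 weeks and regressed for 4 weeks after withdrawal. The design text gives this course for the remission model and does not say separately what the naive mice received. The promoter that drives rtTA, and the ages of the mice, are not given in the sources used here. Mice were given PBS or LPS (lipopolysaccharide, a bacterial membrane component) and killed 24 hours later. The sorted cells were the wild-type CD45.1+/2+ donor fraction that was Lin- cKit+ Sca1+, so by design the cells of all 4 groups came from donors without the fusion gene. Biological replicates numbered 4 (PBS) and 3 (LPS) for naive mice and 4 (PBS) and 5 (LPS) for AF9-experienced mice, each with 1 peak list. P-values measure the spread between samples labelled as biological replicates.

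Glycolysis splits glucose into pyruvate: transporters of the Slc2a family bring glucose in, hexokinases trap it, and the bifunctional Pfkfb enzymes set the level of the phosphofructokinase activator fructose 2,6-bisphosphate. Lactate dehydrogenase A turns pyruvate into lactate, and Hif1a encodes the oxygen-regulated transcription factor that activates many of these genes through ACGTG-containing elements. Cholesterol synthesis runs from acetyl-CoA through mevalonate and squalene to sterols, and its genes are activated by the SREBP factors (Srebf1 and Srebf2), which Insig1 holds in the endoplasmic reticulum when sterols are plentiful. Both pathways have been tied to trained immunity, the lasting change of innate cells and their progenitors after a microbial stimulus.

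RefSeq promoter windows (GRCm38.p6, 250 bases before to 50 after a start site) were found for 34 of the 38 genes and searched on both strands for fixed letter strings. The hypoxia response letters ACGTG were in windows of 14 of 21 glycolysis genes, or 17 of 34 windows, beside 19.6% of all 32851 windows in the table. They were in 3 of 18 cholesterol windows. The NF-Y letters CCAAT were in windows of 12 of 13 cholesterol genes, or 13 of 18 windows, and in 11 of the 34 glycolysis windows, beside 37.4% of all. The SREBP letters TCACNCCAC were in 1 of the 18 cholesterol windows, that of Hmgcs1, in 2 of the 34 glycolysis windows, of Aldoc and Pkm, and in 1.24% of all. The GC box GGGCGG was in 14 of the 18 cholesterol and 19 of the 34 glycolysis windows, beside 35.7% of all. A 10-letter NF-kB string was in 15 of 18 and 23 of 34, beside 50.8% of all. The AP-1 letters TGANTCA were in 1 of 18 and 1 of 34, beside 7.81% of all. The E-box CACGTG, which contains ACGTG, was in 3 of 18 and 4 of 34, beside 7.15% of all. These matches are letters in a window and not measured binding. Glycolysis windows printed here are those of Aldoa, the one gene end of the 38 genes that passed a test, of Ldha, whose window held 5 ACGTG matches counting both strands, and of Pfkfb3, which had 2 called regions. Capitals mark ACGTG or its complement CACGT, with overlapping matches joined.
Aldoa, chr7:126799129-126799428, minus strand: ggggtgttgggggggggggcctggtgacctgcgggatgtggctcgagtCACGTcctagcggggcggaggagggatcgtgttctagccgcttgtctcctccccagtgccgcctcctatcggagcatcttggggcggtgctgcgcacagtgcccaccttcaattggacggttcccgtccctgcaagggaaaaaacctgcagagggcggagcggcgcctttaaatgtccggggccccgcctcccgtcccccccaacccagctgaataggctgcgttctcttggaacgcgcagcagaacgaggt
Ldha, chr7:46845554-46845853, plus strand: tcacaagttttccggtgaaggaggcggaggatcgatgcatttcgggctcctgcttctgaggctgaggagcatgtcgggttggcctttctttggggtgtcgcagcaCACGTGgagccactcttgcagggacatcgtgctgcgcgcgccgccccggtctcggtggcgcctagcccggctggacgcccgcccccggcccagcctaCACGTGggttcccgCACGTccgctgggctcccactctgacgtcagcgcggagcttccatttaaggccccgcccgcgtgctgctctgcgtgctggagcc
Pfkfb3, chr2:11553880-11554179, minus strand: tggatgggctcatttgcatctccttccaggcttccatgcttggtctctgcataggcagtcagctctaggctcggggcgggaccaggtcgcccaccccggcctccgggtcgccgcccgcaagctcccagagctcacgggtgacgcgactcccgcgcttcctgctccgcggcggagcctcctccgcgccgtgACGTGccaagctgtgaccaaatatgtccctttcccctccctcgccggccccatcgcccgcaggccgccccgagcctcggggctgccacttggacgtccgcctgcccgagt
Cholesterol synthesis windows shown are those of Hmgcs1, with both kinds of match, and of Idi1 and Insig1, which had very strong peaks. Capitals mark CCAAT or its complement ATTGG and, in Hmgcs1, the SREBP letters that begin 137 bases before the start site.
Hmgcs1, chr13:119690101-119690400, plus strand: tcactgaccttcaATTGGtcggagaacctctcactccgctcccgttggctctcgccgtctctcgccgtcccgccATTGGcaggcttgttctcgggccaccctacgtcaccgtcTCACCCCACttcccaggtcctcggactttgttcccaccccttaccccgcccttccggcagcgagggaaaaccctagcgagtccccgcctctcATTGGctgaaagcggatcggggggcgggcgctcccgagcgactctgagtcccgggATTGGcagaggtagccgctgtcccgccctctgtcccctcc
Idi1, chr13:8885356-8885655, plus strand: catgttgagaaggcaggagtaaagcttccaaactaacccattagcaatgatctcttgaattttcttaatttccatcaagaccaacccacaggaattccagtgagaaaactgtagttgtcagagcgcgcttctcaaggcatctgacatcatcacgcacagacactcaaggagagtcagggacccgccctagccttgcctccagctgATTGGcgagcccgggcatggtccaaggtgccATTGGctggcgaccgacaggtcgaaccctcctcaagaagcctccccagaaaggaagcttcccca
Insig1, chr5:28071162-28071461, plus strand: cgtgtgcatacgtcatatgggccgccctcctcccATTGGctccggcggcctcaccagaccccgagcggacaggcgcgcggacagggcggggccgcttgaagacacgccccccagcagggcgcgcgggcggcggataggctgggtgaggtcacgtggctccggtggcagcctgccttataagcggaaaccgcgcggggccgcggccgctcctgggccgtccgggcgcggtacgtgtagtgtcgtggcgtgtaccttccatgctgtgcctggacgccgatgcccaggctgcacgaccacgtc

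The peak lists held 19100 to 86968 autosomal peaks. Each was shortened to its 19100 strongest peaks by the authors' -log10 p, and a region's value is its percentile rank in a library, from 100 at the top down to 0 where none of those 19100 peaks covered it. Of the 16 lists, 3 were far shorter than the others (naive PBS 1 with 19100 peaks, AF9-experienced PBS 1 with 25219 and naive LPS 3 with 38762). Outside these 3, the median fold enrichment of the shortened list was 13.9 to 19.4 in PBS and 9.16 to 13.6 in LPS libraries, so peak signal relative to background differed with treatment over the whole genome. A rank gives a region's place among the other peaks of its own library and not its absolute accessibility. Peaks on chromosome Y numbered 2 or 3 in all 3 naive LPS libraries and in AF9-experienced LPS 1 and 2, and 0 or 1 in the other 11. Of 10 HSPC marker genes, 5 (Kit, Cd34, Flt3, Meis1 and Mecom) had a peak within 1 kb of an end of the gene in all 16 libraries. Cd3e, Cd3g, Cd8a, Ms4a1, Ly6g, S100a8, Epb42, Slc4a1, Cdh5 and Cxcl12 had none in any library. Of the others, the neutrophil gene Mmp8 had one in 1 PBS and 7 LPS libraries. Cd4 and Camp had one in 1 library each, Cd79a in 13, Pecam1 in 11 and Col1a1 in all 16. The part of such cells, of list length and of the Y-peak difference in the results below was not tested, except where a value without those libraries is given.

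The cholesterol genes had strong peaks at their promoters and few regions elsewhere, and the glycolysis genes had more distal and intragenic regions. Of their 25 regions, 13 (52%) lay within 1 kb of an end of the gene model, against 15 of 54 (27.8%) for glycolysis and 42.3% of all tested regions. The median percentile of gene-end regions was 90.1 for cholesterol synthesis, 78.9 for glycolysis and 66.1 for all. Present in all 16 libraries were 19 of the 25 cholesterol regions (76%) and 26 of the 54 glycolysis regions (48.1%), against 46.5% of all regions. Regions away from gene ends had a median percentile of 36.0 in cholesterol synthesis, 27.6 in glycolysis and 17.2 overall. There were 39 such regions at glycolysis genes and 12 at cholesterol genes.

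**Figure D1:**
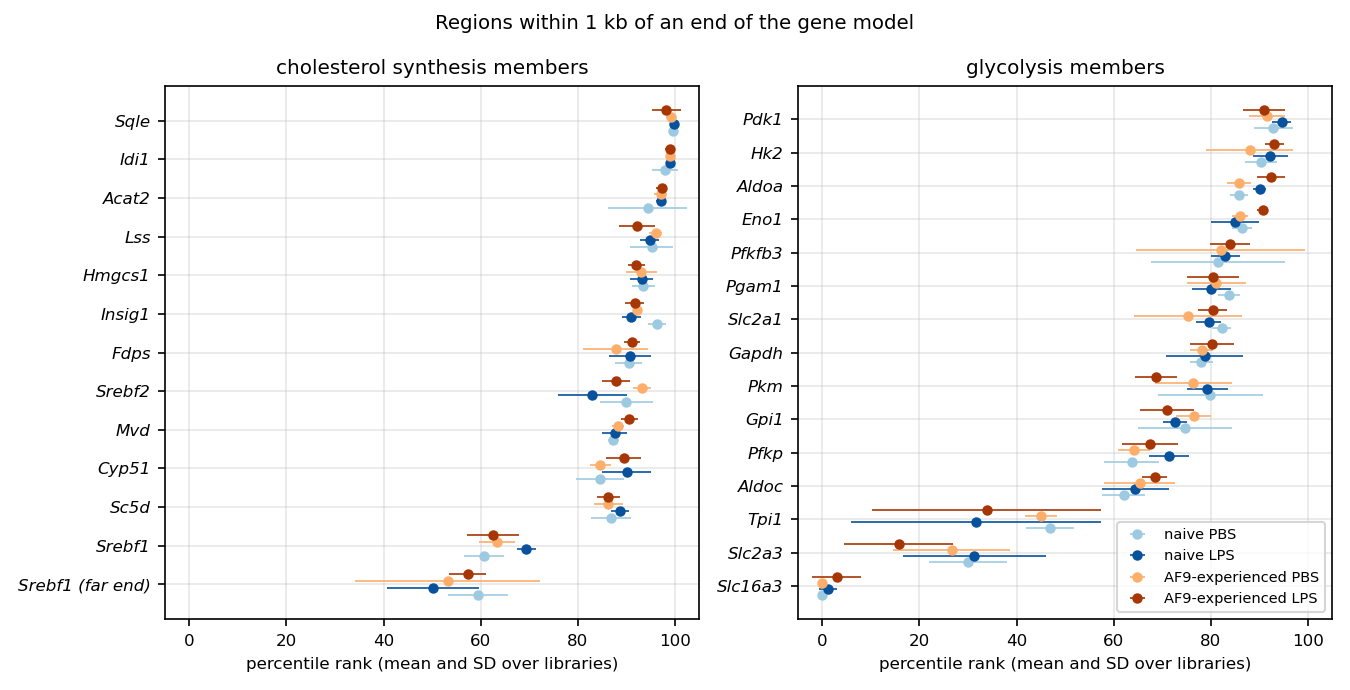
Mean percentile rank (x axis, 100 strongest, with SD over libraries) at the 13 cholesterol synthesis and 15 glycolysis regions within 1 kb of an end of the gene model, for the 4 groups. Group means lie close together at most genes, with 11 of the 13 cholesterol regions above 80 and Slc16a3, Slc2a3 and Tpi1 lowest.

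After LPS, distal and intragenic regions of 6 glycolysis genes (Pfkfb3, Ldha, Hk1, Hk2, Slc2a3 and Hif1a) ranked higher. The 3 regions that ranked lower lay inside Hk1, inside Slc2a3 and upstream of Insig1, so Hk1 and Slc2a3 had calls in both directions. Of the gene ends only that of Aldoa passed the test. Averaged over naive and AF9-experienced mice, 9 of the 79 member regions rose and 3 fell, at an adjusted p under 0.05 from limma. Over all 23554 regions, 7.18% rose and 5.45% fell. Of the 12 calls, 11 were in glycolysis genes (11 of 54 regions, 20.4%) and 1 in a cholesterol gene (1 of 25, 4%), where the share over all regions was 12.6%. In naive mice alone, 2 member regions rose and 1 fell, beside backgrounds of 2% and 1.22%. In AF9-experienced mice alone, 6 rose and none fell, beside 3.44% and 1.74%. Away from gene ends, 11 of 51 member regions were called (21.6%, against 17.5% of all such regions), and at gene ends 1 of 28 (3.57%, against 6.01%). The median averaged difference was 1.26 percentile points over the glycolysis regions, 0.55 over the cholesterol regions and -0.11 over all regions.

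The averaged count depended on how peaks were ranked. Ranking by fold enrichment called 26 of 80 member regions (24 higher), where 22.8% of all regions were called, and without the 3 shortest lists 36 of 174 regions in longer lists were called (20 higher), where 21.9% of all were called. The split between the pathways depended on it too. Ranked by fold enrichment, 18 of 53 glycolysis regions (34%) and 8 of 27 cholesterol regions (29.6%) were called, and in the longer lists 26 of 123 (21.1%) and 10 of 51 (19.6%). Without the 3 shortest lists but at the same 19100 peaks, 14 of 51 (27.5%) and 1 of 25 (4%) were called, where the share over all regions was 22.2%. Of the 12 calls, 2 were at regions found in the shortened lists of 1 treatment only, 1 in LPS (inside Pfkfb3) and 1 in PBS (inside Hk1). Such a region met the filter of at least 3 lists only through the treatment where it was high, so its difference is in part set by the filter and the count is not support for a pathway.

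**Figure D2:**
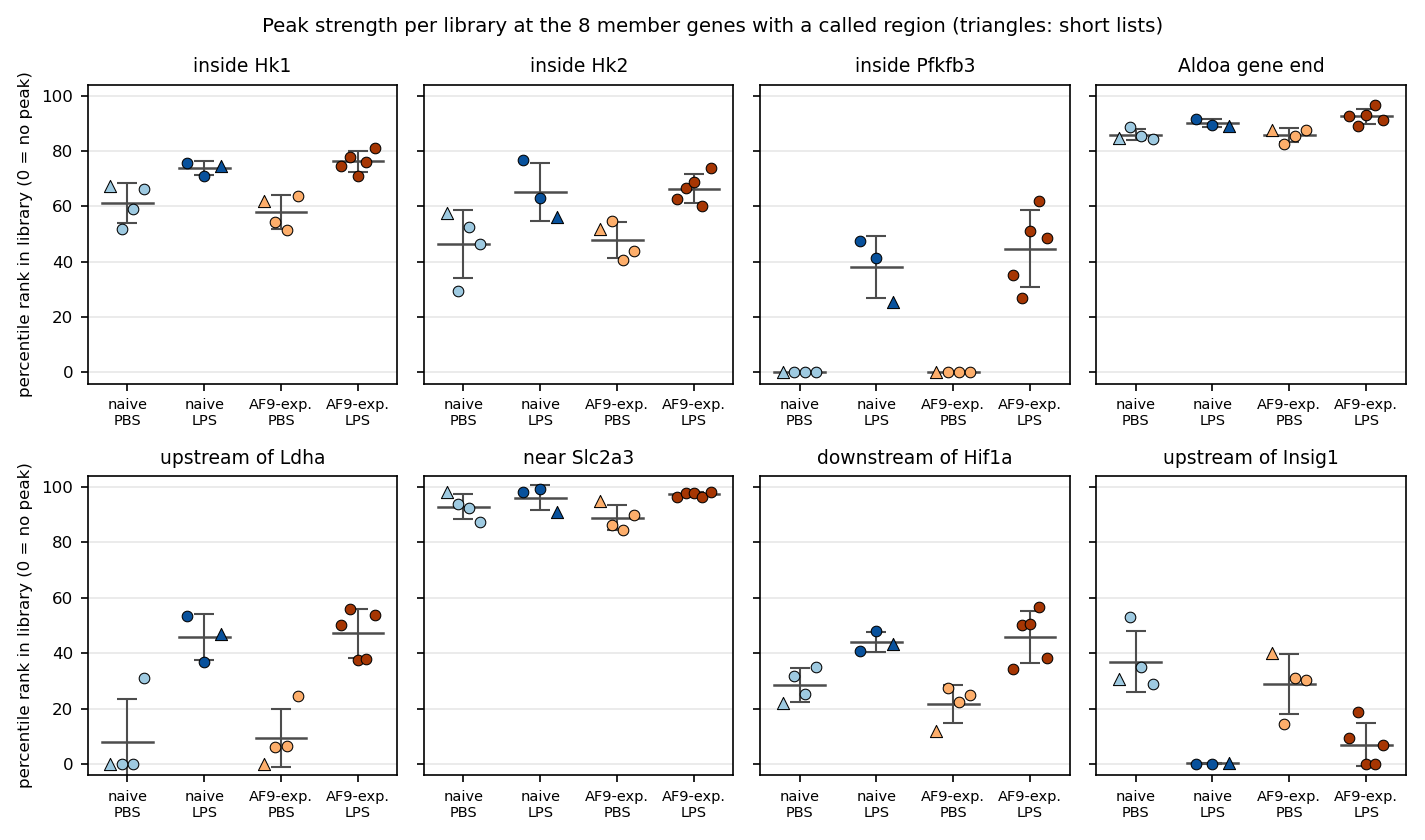
Percentile rank in each library (y axis, 0 means no peak among the 19100 strongest) by group at 1 region of each member gene with a call; bars give the mean and SD, and triangles the 3 short lists. PBS and LPS libraries do not overlap at the Pfkfb3, Ldha, Hk1 and Aldoa regions, and choosing regions by the LPS test favours this. Insig1 is the one gene shown that is lower in LPS.

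A region inside Pfkfb3, whose product is the inducible regulator of phosphofructokinase, was among the strongest peaks in LPS libraries only. At chr2:11530040-11530791, 23.5 kb from the nearest RefSeq start site and within the gene model, all 8 PBS libraries were at 0. The 3 naive LPS libraries were at 47.5, 41.2 and 25.5, and the 5 AF9-experienced LPS libraries at 35.4, 26.7, 51.2, 61.8 and 48.6. The groups did not overlap, which choosing regions by the LPS test favours here and below. The share of all regions without such overlap was not counted. The rank rose by 38.1 ± 8.54 points (SE) in naive mice (adjusted p = 0.0143) and by 44.7 ± 7.50 in AF9-experienced mice (adjusted p = 0.000991), and by 41.4 ± 5.68 averaged (adjusted p = 3.93e-05). It met the filter through LPS libraries alone. With every region tested and no filter the averaged adjusted p was 7.74e-05, but on the same values, so this does not undo that selection. The 0 in PBS is a place below the 19100 strongest and not an absent peak: the full lists held a peak there in 6 of 8 PBS libraries, at percentiles up to 62.2, and in all 8 LPS libraries at 63.3 to 87.8. The authors' fold enrichment at those peaks overlapped, at 7.63 to 11.3 in PBS and 5.08 to 13.1 in LPS. The naive call was lost without naive LPS 1 (adjusted p = 0.0794) or naive LPS 2 (0.0663). Libraries with fewer than 2 Y peaks leave only 1 comparison of LPS with PBS, that in AF9-experienced mice. This region kept its call there, higher in LPS, and the other member regions called in AF9-experienced mice lost theirs.

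A second Pfkfb3 region, named after its values were seen, lay 41.3 kb from the gene at chr2:11429515-11430129. Its PBS libraries ran from 18.4 to 62.6 and its LPS libraries from 54.9 to 76.4, so the groups overlapped. It rose by 19.7 ± 5.44 points averaged (adjusted p = 0.0193), and the call was lost without naive LPS 1 (0.0511) or naive LPS 2 (0.0658). Ranked by fold enrichment the difference was 12 (adjusted p = 0.264). The start-site region of Pfkfb3 that is shown in sequence above had means of 81.5 ± 14 (SD, n = 4) in naive PBS and 83.0 ± 2.9 (n = 3) in naive LPS, and an averaged difference of 1.75 ± 5.12 (adjusted p = 0.861). Its lowest values, 60.8 and 56.3, were in the short lists of naive PBS 1 and AF9-experienced PBS 1, and the direction depended on the setting. Without the 3 short lists, at the same list length, the difference was -5.15 (adjusted p = 0.0447), ranked by fold enrichment it was 25 (0.0116), and with the library's median fold as a covariate it was 10.8 (0.00751).

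Ldha, the lactate-forming enzyme, had a called region at chr7:46833300-46834043, 12.1 kb upstream of its start site. Naive PBS libraries were at 0, 0, 0 and 31.1 and AF9-experienced PBS libraries at 0, 6.30, 6.55 and 24.5. Naive LPS libraries were at 53.4, 36.9 and 47.1, and AF9-experienced LPS libraries at 50.3, 56.1, 37.5, 37.9 and 53.8. Every LPS library was above every PBS library. The difference was 38.0 ± 9.36 in naive mice (adjusted p = 0.0256), 37.8 ± 8.22 in AF9-experienced mice (adjusted p = 0.00809) and 37.9 ± 6.23 averaged (adjusted p = 0.000287). Full lists held a peak there in 6 of 8 PBS and 8 of 8 LPS libraries. Without the 3 shortest lists and with longer lists the averaged difference was 16.7 (adjusted p = 0.0202). Neither background passed there on its own (naive 22.3, adjusted p = 0.0822, and AF9-experienced 11.1, 0.244). Ranked by fold enrichment the averaged call was kept (28.5, 0.0118), and the naive (29.7, 0.218) and AF9-experienced (27.2, 0.0703) calls were lost. With 9550 peaks per list the averaged difference was 3.16 (adjusted p = 0.499), and neither background passed (naive 0.903, AF9-experienced 0.608). The naive call was also lost without naive PBS 2 (0.0755), naive PBS 3 (0.0819), naive LPS 1 (0.117) or naive LPS 3 (0.0691). The Ldha start-site region, shown in sequence above and lying inside the gene model, was at 66.8 to 78.2 in PBS and 65.1 to 79.8 in LPS, with an averaged difference of -0.51 ± 2.69 (adjusted p = 0.925).

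Hexokinases carry out the first step of glycolysis. Inside Hk1, chr10:62326728-62328174 lay 13 kb from a start site. PBS libraries ran from 51.3 to 67.3 and LPS libraries from 70.9 to 81.2, without overlap, and the averaged rise was 15.5 ± 3.12 points (adjusted p = 0.00203). In AF9-experienced mice the rise was 18.3 ± 4.12 (adjusted p = 0.0104), a call lost without AF9-experienced PBS 3 (0.054). A different Hk1 region, chr10:62306340-62307096, was named after its values were seen because it fell. It was at 33.2 to 44.9 in 6 PBS libraries, at 0 in the short lists naive PBS 1 and AF9-experienced PBS 1, and at 0 in all 8 LPS libraries. The averaged difference was -32.0 ± 7.15 (adjusted p = 0.00464), and -42.6 (adjusted p = 1.06e-05) without the 3 short lists. Full lists held a peak there in 6 PBS and all 8 LPS libraries, so its presence did not fall while its rank did. It met the filter through PBS libraries alone. With no filter the adjusted p was 0.012, but on the same values, so this does not undo that selection. Inside Hk2, the inducible hexokinase, chr6:82763713-82764549 was at 29.3 to 57.5 in PBS and 56.0 to 76.7 in LPS. Its averaged rise was 18.7 ± 4.51 points (adjusted p = 0.00783), and neither background passed on its own (naive, adjusted p = 0.147; AF9-experienced, 0.0743). The Hk2 gene-end region was at 74.7 to 93.8 in PBS and 88.1 to 95.2 in LPS (averaged difference 3.51 ± 2.23, adjusted p = 0.332). It was 24.2 (0.023) ranked by fold enrichment and 6.95 (0.0138) with the median fold as a covariate, but -0.09 (0.968) without the 3 short lists at the same length.

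Aldoa, an aldolase that splits fructose bisphosphate, was the one member whose gene-end region passed. At chr7:126798615-126800107, which covers the printed window, naive PBS libraries were at 84.7, 88.7, 85.5 and 84.5 and AF9-experienced PBS libraries at 87.7, 82.4, 85.5 and 87.6. Naive LPS libraries were at 91.7, 89.4 and 89.1 and AF9-experienced LPS libraries at 92.6, 89.0, 92.9, 96.8 and 91.1. All LPS values were above all PBS values, by a small margin. The averaged rise was 5.45 ± 1.51 points (adjusted p = 0.0199), and the adjusted p was 0.0568 without naive LPS 1.

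Slc2a3 encodes the glucose transporter GLUT3. Of its 5 tested regions 3 were called in the averaged comparison. The strongest, chr6:122810442-122811964, lay 8.08 kb from the gene and was at 84.4 to 98.3 in PBS and 91.0 to 99.3 in LPS, overlapping. It rose by 8.48 ± 2.30 in AF9-experienced mice (adjusted p = 0.0338) and by 5.86 ± 1.74 averaged (adjusted p = 0.0294). The averaged call was lost with the library's median fold as a covariate (0.124) and without any 1 of 6 libraries, of naive PBS 3 and 4, naive LPS 1 and 2, and AF9-experienced PBS 2 and 3 (0.0507 to 0.0962). The AF9-experienced call was lost without any 1 of 7 libraries, all in that comparison (0.0552 to 0.14). The 2 weaker regions moved in opposite directions, by 18.6 ± 5.54 at 2.05 kb from the gene (adjusted p = 0.0297) and by -20.0 ± 6.45 inside it (adjusted p = 0.0433). The first call was lost without any 1 of 6 libraries (naive PBS 2 and 3, naive LPS 1 and 2, AF9-experienced PBS 2 and 3; 0.0534 to 0.0855) and the second without any 1 of 13, that is all but naive PBS 3, AF9-experienced PBS 1 and AF9-experienced LPS 5 (0.0579 to 0.0978).

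Hif1a, the hypoxia-inducible factor gene, had a region 5.45 kb beyond its model at chr12:73953002-73954436. PBS libraries were at 11.9 to 35.1 and LPS libraries at 34.2 to 56.8, and the ranges met only at their edges. The rise was 24.3 ± 6.83 in AF9-experienced mice (adjusted p = 0.0405, 0.0515 to 0.105 without any 1 of 10 libraries, naive PBS 3 and 4, naive LPS 2, AF9-experienced PBS 1 to 4 and LPS 2 to 4) and 19.9 ± 5.18 averaged (adjusted p = 0.0131). With 9550 peaks per list the averaged difference was 1.5 (adjusted p = 0.759). The Hif1a start-site region was at 91.2 to 98.3 in PBS and 81.0 to 98.9 in LPS (averaged difference -2.60 ± 1.84, adjusted p = 0.387).

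No other glycolysis gene end passed the test on ranks by p. Averaged differences at the 15 gene-end regions ran from -13.2 to 5.53 points, with a median of 1.45. Gapdh was at 74.8 to 80.5 in PBS and 72.5 to 87.7 in LPS, a difference of 1.45 ± 2.41 (adjusted p = 0.743). Slc2a1, the GLUT1 transporter, differed by 1.19 ± 2.83 (adjusted p = 0.825) and Pkm, pyruvate kinase, by -4.21 ± 3.37 (adjusted p = 0.452). Ranked by fold enrichment the Slc2a1 difference was 44.2 (0.012), and with the median fold as a covariate that of Pkm was -9.44 (0.0235). The Pfkfb4 start-site region, which lies inside its gene model, differed by 1.33 ± 2.00 (adjusted p = 0.712).

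**Figure D3:**
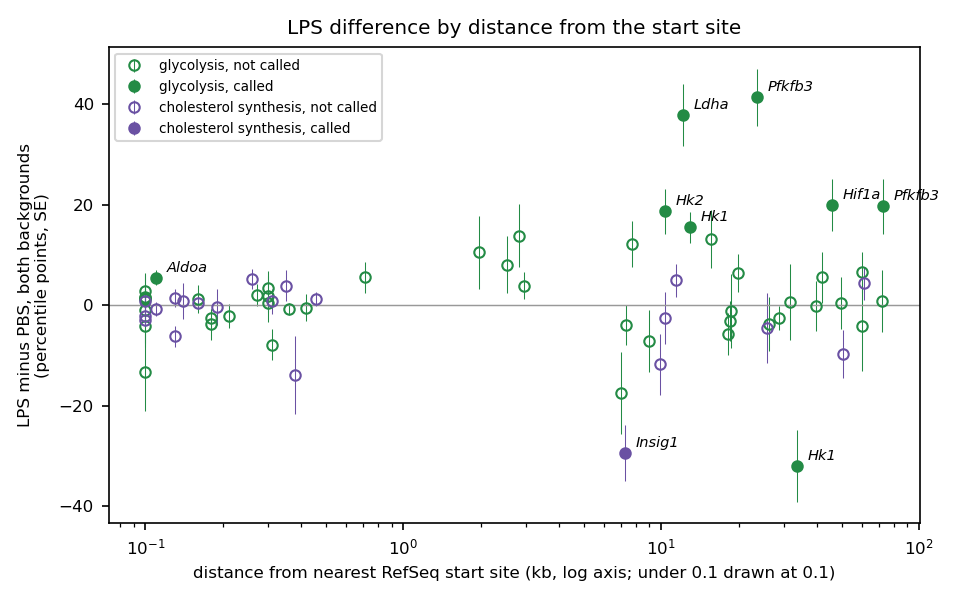
LPS minus PBS difference averaged over both backgrounds (y axis, percentile points, bars are SE) against distance from the nearest RefSeq start site (x axis, log scale) for the 70 member regions of genes in the promoter table. Within 1 kb 1 of 34 regions was called, Aldoa, and farther away 8 of 36, at 7.25 to 72.3 kb.

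In cholesterol synthesis the one called region lay upstream of Insig1, the sterol-sensing anchor of the SREBP pathway, and it fell. At chr5:28063662-28064656, 7.25 kb before the start site, naive PBS libraries were at 30.9, 53.2, 35.1 and 28.9 and naive LPS libraries at 0, 0 and 0.487. AF9-experienced PBS libraries were at 40.03, 14.3, 31.1 and 30.3 and AF9-experienced LPS libraries at 9.24, 18.7, 0, 0 and 6.79. The naive groups did not overlap, and the AF9-experienced groups overlapped by 1 library. The rank fell by 36.8 points in naive mice (SE 8.32, adjusted p = 0.0148) and by 29.4 averaged (SE 5.54, adjusted p = 0.00109). In AF9-experienced mice the difference was -22.0 ± 7.30 (adjusted p = 0.0863). All 16 full lists held a peak there, at 30.9 to 85.6 in PBS and 50.96 to 79.6 in LPS. Ranked by fold enrichment the averaged difference was -19.8 (adjusted p = 0.0548), and the naive call was lost without naive PBS 2 (0.0541), naive LPS 1 (0.0521) or naive LPS 2 (0.0624).

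The gene-end regions of the cholesterol enzymes Sqle, Idi1 and Hmgcs1 ranked near the top of every list under PBS and LPS, and none passed the test. Sqle, squalene epoxidase, was at 97.8 to 99.99 in PBS and 92.9 to 99.97 in LPS (averaged difference -0.50 ± 1.09, adjusted p = 0.81). Idi1, which isomerises isopentenyl diphosphate, was at 94.0 to 99.9 and 97.8 to 99.9 (0.55 ± 1.03, adjusted p = 0.777). Hmgcs1, which makes HMG-CoA, was at 90.2 to 97.5 and 90.0 to 95.3 (-0.69 ± 1.40, adjusted p = 0.793). The Insig1 promoter was at 91.3 to 98.1 and 89.2 to 94.4 (-2.93 ± 1.24, adjusted p = 0.127). Srebf2, the main activator of sterol genes, was at 82.4 to 95.1 and 75.0 to 91.9 and missed the threshold (-6.17 ± 2.06, adjusted p = 0.0515, and 0.0156 to 0.158 when each library was left out). Ranked by fold enrichment the Srebf2 difference had the other sign and was not called (19.4, adjusted p = 0.101). Srebf1 was at 55.1 to 66.5 and 56.3 to 71.6 (3.92 ± 3.08, adjusted p = 0.443). A region at another Srebf1 start site, also not called, had median full-list percentiles of 95.5 in PBS and 93.6 in LPS. The first Srebf1 region had 90.7 and 89.8. Over the 13 gene-end regions none passed and 3 had an unadjusted p under 0.05, with differences from -6.17 to 5.21 points. Near the top of a list the percentile has little room, and the direction depended on the measure. Ranked by fold enrichment instead of p, Hmgcs1 differed by 25.7 points (adjusted p = 0.0211), Sqle by 8.25 (0.0461), Idi1 by 8.95 (0.0471) and the Insig1 promoter by 33 (0.0246), all higher in LPS, and 8 of 27 cholesterol regions were called (7 higher).

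**Figure D4:**
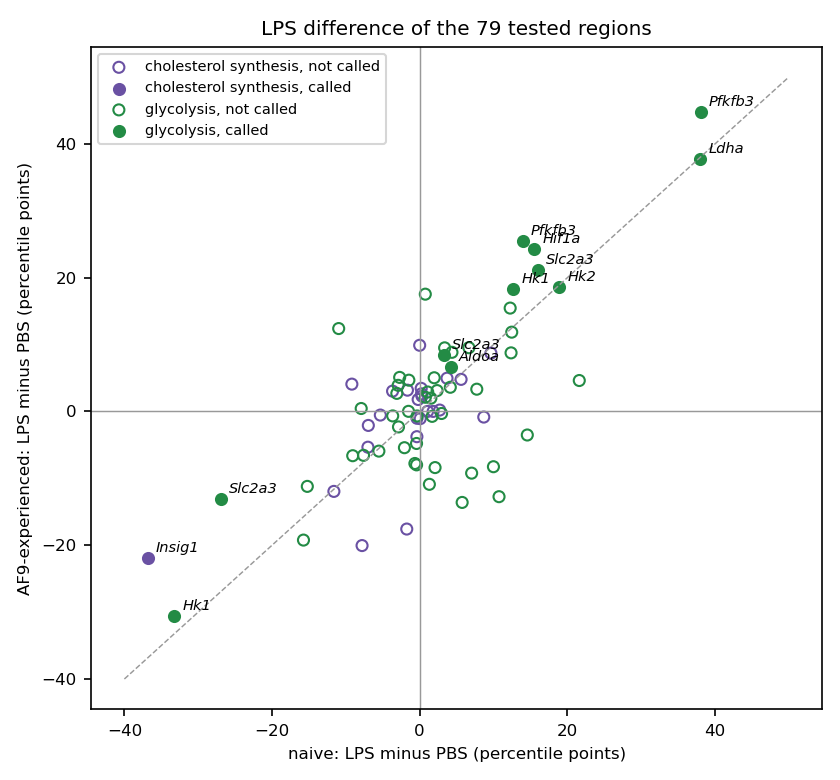
LPS minus PBS difference in naive (x axis) and AF9-experienced mice (y axis), in percentile points, for the 79 tested member regions; filled points were called in at least 1 LPS comparison and the dashed line marks equal differences. The 12 regions called in the averaged comparison had the same sign in both backgrounds, and choosing them by that average favours this.

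AF9 experience on its own left no called member region. Under PBS, with AF9-experienced set against naive mice, no member region passed, and 2 of 79 had an unadjusted p under 0.05 (limma). Over all regions 0% were called. The smallest p-values belonged to a region inside Gpi1, at means of 31.1 ± 2.7 and 12.1 ± 14 (difference 19.0 ± 8.02, unadjusted p = 0.0274), and to the Insig1 promoter, at 92.3 ± 0.78 and 96.4 ± 1.8 (-4.09 ± 1.72, unadjusted p = 0.0265). Adjusted p was 1 for both. Under LPS, 0 of 79 passed and 2 had an unadjusted p under 0.05, where 0.0127% of all regions were called, all lower. Those 2 were Eno1, the enolase gene end, at 90.7 ± 1.2 and 85.0 ± 5.0 (5.73 ± 2.30, adjusted p = 0.876), and the Pkm gene end, at 68.7 ± 4.3 and 79.3 ± 4.3 (-10.7 ± 4.84, adjusted p = 0.916). The cholesterol region with the smallest p in LPS mice lay inside Lss (difference 9.90 ± 4.79, adjusted p = 0.927). It was present in 3 libraries, all AF9-experienced LPS. It thus met the filter only through the group where it was high, and its difference is in part set by the filter. Differences between backgrounds ran from -13.8 to 19.0 points under PBS and from -15.6 to 21.6 under LPS.

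The LPS difference itself was not shown to depend on background at any member. The interaction called 0 of 79 member regions and 0% of all regions, and 1 member had an unadjusted p under 0.05. That region, inside Slc2a1, had an LPS difference of 5.755 points in naive and -13.6 in AF9-experienced mice (interaction -19.4 ± 7.95, adjusted p = 1). For Pfkfb3 the interaction was 6.69 ± 11.4, for Ldha -0.24 ± 12.5 and for Insig1 14.9 ± 11.1, each with an adjusted p of 1. With standard errors of this size the values do not show that the LPS differences were equal.

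Of 50 tested regions at 26 other genes of glycolysis and its regulation, 6 rose and 1 fell in the averaged comparison. Rptor, the mTORC1 scaffold, had a region inside the gene at 0 to 15.8 in PBS and 41.0 to 66.2 in LPS, a difference of 46.9 ± 5.63 (adjusted p = 8.77e-06) that was 7.1 (0.344) with 9550 peaks per list. Tsc2, which restrains mTORC1, rose by 33.96 ± 5.6 inside the gene (adjusted p = 0.000295). Taldo1, of the pentose phosphate pathway, rose by 17.5 ± 4.14 (adjusted p = 0.00682), and Slc16a1, a lactate transporter, by 10.8 ± 3.32 at its gene end (adjusted p = 0.0345). The Slc16a1 call was lost without any 1 of 7 libraries (naive PBS 2, naive LPS 2 and 3, AF9-experienced PBS 2 and 4 and LPS 1 and 4; 0.052 to 0.0778), without the 3 short lists at the same length (7.83, 0.0824), with 9550 peaks per list (21.6, 0.0618) and with no filter (0.0628). A region 13.8 kb from Egln3, a HIF prolyl hydroxylase, fell by 24.1 points (SE 5.57, adjusted p = 0.00583), a difference of -3.24 (0.519) with 9550 peaks per list and of -9 (0.333) on fold ranks. Of 27 regions at 14 other cholesterol genes, 4 rose and 2 fell. Mylip, which encodes a ligase that degrades a lipoprotein receptor, rose by 29.4 ± 4.71 (adjusted p = 0.000212). Soat1, which esterifies cholesterol, rose by 31.1 ± 5.94 at a region inside the gene (adjusted p = 0.00124), and Abcg1, a sterol exporter, by 27.96 ± 6.33 (adjusted p = 0.0051). A region 26.7 kb from Abca1, another exporter, fell by 24.9 (SE 5.18, adjusted p = 0.00264), as did the Soat1 gene end, named after its value was seen, by 12.8 (SE 4.14, adjusted p = 0.044). These 13 calls (7 of 50 and 6 of 27 regions) stood beside 12.6% over all regions, and 4 of them, those of Taldo1 and Abcg1 among them, were at regions found in LPS lists only. Those 4 met the filter of at least 3 lists through LPS libraries alone. Their differences and p-values are therefore in part set by the filter.

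The 2 tested member regions farthest from their genes lay just inside the 50 kb limit, at 44.5 kb from Mvk (mean 0 in PBS and 4.50 in LPS) and 49.5 kb from Hk2 (4.88 and 5.78). Just outside lay a region 50.96 kb from Sqle (50.5 and 44.99) and one 56.8 kb from Insig1 (7.44 and 5.40).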

How the data were processed

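ATAC-seq peak lists of 16 biological replicates were used, 1 list for each pair of technical libraries in the labels. Per the submitters' processing notes the tools were MACS3, BWA, Picard, Trim Galore and FastQC, without versions, and the build GRCm38; filters are not given in the sources used here. Per the labels' protocols, Omni-ATAC was followed and a Chromium chemistry was used for the libraries. Each deposited peak carries the authors' fold enrichment, a ratio to local background, and the authors' -log10 p-value and -log10 q-value, none scaled between libraries. Read depth is not known from these lists.

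Lists were cut to 19100 autosomal peaks by -log10 p, peaks overlapping by at least 1 base were joined, and regions in at least 3 lists were tested on percentile ranks. The test was limma 3.58.1 (trend and robust) in R 4.3.3, with 4 group means over 16 libraries, 6 contrasts, and Benjamini-Hochberg adjustment over 23554 regions within each contrast at 0.05. Of these steps only the limma fit was tested on simulated data, with regions of middle rank shifted in naive LPS and read in the naive comparison. The cutting, joining and gene assignment were not tested in this way. A percentile difference is called rise or fall only where it passed. Members, gene lists and motifs were chosen with earlier results of these data known. Named were each called member by its smallest p, the 2 smallest p where a contrast called none in a pathway, fixed gene ends of 14 genes, and other pathway genes only where called. A few genes of the other-pathway and marker lists are not reported here by name, though counts over the pathway lists include them. Alternatives are given at the end.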

Additional observations from a re-analysis of the deposited data

Results flagged for a closer look

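At 35 named regions, each of the 3 groups of 4 or 5 libraries was tested for a library far from its group, and 13 were found. Chance gives about 1 in 20 groups for normally distributed values, but ranks are bounded at 0 and 100. A group with all but 1 library at 0 is always flagged, so that rate does not apply here. Of the 13, 7 were in the short lists naive PBS 1 and AF9-experienced PBS 1, and 6 of these were low: naive PBS 1 was at 60.8 at the Pfkfb3 start site (others 87.6 to 89.5), 99.0 at Sqle (others 99.96 to 99.99) and 94.0 at Idi1 (others 99.0 to 99.9), and AF9-experienced PBS 1 was at 74.7 at the Hk2 gene end (others 91.2 to 93.5), 56.3 at the Pfkfb3 start site (others 87.7 to 92.6) and 97.8 at Sqle (others 99.7 to 99.9). AF9-experienced PBS 1 was also at 15.8 at the Rptor region, where the other 3 were at 0. AF9-experienced LPS 5 stood apart at the Pfkfb3 start site (91.2, others 81.3 to 84.0) and at Sqle (92.9, others 98.7 to 99.9). Naive PBS 4 was at 31.1 upstream of Ldha and at 14.4 at the Rptor region, with the other 3 at 0 in both. At the Slc2a1 region named for its interaction, 2 libraries were above their groups, at 15.0 in naive PBS 2 (others 0 to 2.06) and 8.32 in AF9-experienced LPS 4 (others 0 to 1.71).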

How the results depend on the processing

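The counts of called member regions for LPS in naive mice, LPS in AF9-experienced mice and LPS averaged were 3, 6 and 12. The shares called over all regions were 3.22%, 5.18% and 12.6%. Ranking on fold instead of p gave 0, 2 and 26, beside 0.0148%, 1.41% and 22.8% of all regions. Lists of 9550 peaks gave 0, 3 and 5. The counts were 11, 21 and 36 of 174 regions without the 3 shortest lists, beside 6.73%, 10.5% and 21.9% of all regions. They were 6, 15 and 19 with library weights. For presence in the full lists they were 0, 0 and 0, where most regions are present in most libraries by construction. Fitting only the groups compared gave 0 in naive mice, the median fold as a covariate gave 10 in AF9-experienced mice, and libraries with fewer than 2 Y peaks gave 1. Without the 3 shortest lists but at the same 19100 peaks, an alternative chosen after seeing the data, naive mice gave 5. The share over all regions was then 6.76%. For settings without a share beside them, the counts alone do not show a change particular to the members. Leaving out 1 library gave 0 to 4 in naive mice (0 without naive LPS 1, 1 without naive LPS 2 or naive PBS 2), 3 to 9 in AF9-experienced mice (3 without AF9-experienced PBS 2, 3 or 4 or LPS 3 or 4) and 8 to 13 averaged. Both comparisons of AF9-experienced with naive mice, and the interaction, called 0 member regions under every setting run. With the replicate number as a block the 3 counts were 3, 5 and 11; same-numbered libraries correlated at -0.215 to 0.231, so the numbers did not pair the samples. The block ended 7 of the 42 calls of named regions, among them the averaged rise 2.05 kb from Slc2a3 (17.9, adjusted p = 0.0517), and reversed none; at Sqle, not called either way, it gave 0.222 averaged in place of -0.496. Where at least 1 of the values was a call, directions changed at 5 regions. Averaged over backgrounds, ranking by fold enrichment gave 25.7 at Hmgcs1, 8.25 at Sqle and 33 at the Insig1 promoter, dropping the short lists at equal length gave -5.15 at the Pfkfb3 start site (25 by fold enrichment and 10.8 with the covariate, both called), and presence in the full lists gave a share difference of 0.25 at the Hk1 region that fell. The cause was not tested. Of 21 averaged calls of named regions, 18 moved by over 1.5 times in the longer lists left without the 3 shortest (17 smaller), 9 of the 19 still tested did on fold ranks, and 9 of the 12 still tested did at 9550 peaks. Joining at 50% overlap changed none of the 42 calls of named regions, and library weights none. Ranks do not measure depth, which these lists do not give, so a region absent from a short list cannot be told from one too weak to be called there.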
